A study of Mus musculus with 5 samples.

Results

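Plakophilin-4 and 9 other genes of cell junctions were followed in the thoracic aorta of mice: the plakophilins Pkp1, Pkp2 and Pkp4, the catenins Ctnnd1, Ctnna1, Ctnnb1 and Jup, and the cadherins Cdh2, Cdh11 and Cdh13. The genes were chosen by name, and their members are all probe sets of the array that the platform annotation assigns to a single gene, that gene being among these 10. A probe set is a group of short probes near the 3′ end of a transcript that together give 1 value. The rule found 26 probe sets for the 10 genes, among 45037 probe sets and 18193 named genes in all. The name of Pkp4 was selected on its values in an earlier comparison of these same arrays, P467L against non-transgenic, and the other genes were added as its relatives and binding partners. The differences by genotype below are therefore descriptions of the members and support nothing about them independently.

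Cells in a tissue hold to one another through cadherins, transmembrane proteins that bind the cadherins of the neighbouring cell. Inside the cell, β-catenin (Ctnnb1) or plakoglobin (Jup) binds the cadherin tail and links it through α-catenin (Ctnna1) to actin, while p120-catenin (Ctnnd1) binds nearer the membrane and keeps the cadherin at the surface. Plakophilins are armadillo-repeat proteins that join desmosomal cadherins to desmoplakin and intermediate filaments. Plakophilin-4, also called p0071, belongs to the p120-catenin branch of that family and is found at adherens junctions as well as desmosomes. N-cadherin (Cdh2) and T-cadherin (Cdh13) are the cadherins best known from vascular smooth muscle, and cadherin-11 is known from mesenchymal cells.

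The array values came from 5 Affymetrix arrays of the mouse transcriptome. The transgenic group, here called P467L, had 3 arrays of male C57BL/6 mice carrying a dominant negative mutant of human PPARγ under a promoter specific to smooth muscle, that of the gene for smooth muscle myosin heavy chain. The control group had 2 arrays of non-transgenic male littermates. Each array held total RNA pooled from 6 to 8 thoracic aortas, so no value belongs to a single animal, and the labels used here state no age. The transgene was directed to smooth muscle, while the RNA came from the whole vessel with its endothelium, adventitia and any tissue left attached. In such samples, fewer cells of a type and less RNA per cell cannot be told apart.

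The arrays were much alike, with Pearson correlations of 0.985 to 0.997 over all probe sets, and P467L replicate 1 had the lowest ones. That array lay at least 1 log2 unit below every other array in 842 probe sets, and Malat1, a nuclear noncoding RNA, measured 8.03 there by probe set 1429060_at against 9.45 to 9.87 in the other 4. Non-transgenic replicate 2 was set apart by transcripts of gastric epithelium, with 13.3 for Gkn2 against 8.79 to 10.2 elsewhere.

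The promoters of Pkp4 and of Jup are shown because Pkp4 was the lowest and Jup among the highest members in P467L aortas, and because the study interferes with a nuclear receptor. Each is the 250 bases before the RefSeq transcription start, in build GRCm38.p6, 5′ to 3′ along the gene's own strand. For Pkp4 it is the more upstream of its 2 annotated starts, at chr2:59160600-59160849 on the + strand, and for Jup it is chr11:100397791-100398040 on the - strand. Capitals mark GC boxes (GGGCGG) and CCAAT boxes (CCAAT) on either strand, some of which overlap one another.
Pkp4: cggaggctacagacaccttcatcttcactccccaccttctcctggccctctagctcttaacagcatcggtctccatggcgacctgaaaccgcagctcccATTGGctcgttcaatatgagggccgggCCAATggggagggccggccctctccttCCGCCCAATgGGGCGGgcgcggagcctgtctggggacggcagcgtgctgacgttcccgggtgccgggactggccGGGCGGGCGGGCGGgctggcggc
Jup: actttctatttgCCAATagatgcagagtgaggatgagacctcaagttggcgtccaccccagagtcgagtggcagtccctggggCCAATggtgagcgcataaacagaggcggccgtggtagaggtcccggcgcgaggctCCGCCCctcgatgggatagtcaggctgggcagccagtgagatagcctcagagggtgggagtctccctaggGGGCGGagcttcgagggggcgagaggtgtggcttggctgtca

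The Pkp4 window had 68.4% G and C and the Jup window 62%, against a median of 52.4% over 32851 promoter windows of the same length. The Pkp4 window shown held 5 GC boxes and 3 CCAAT boxes, and that of Jup held 2 of each. The window of the other Pkp4 start, chr2:59161619-59161868 on the + strand, had 70% G and C and held 0 of either box. Of all windows, 32.7% held a GC box and 33.8% a CCAAT box. The half-site AGGTCA, to which nuclear receptors of the PPAR type bind as a repeat, was searched on both strands and was in none of these windows; 14% of all windows held it. The full repeat, 2 such half-sites with any 1 base between them, was in 0.0335% of all windows and in none of these. Among the windows of other members that were read, 1 of Ctnnd1 held the half-site. These letters describe the windows alone and say nothing of binding there or elsewhere.

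Among the 26 probe sets, those of Pkp4 and the brighter one of Cdh2 were lower in P467L aortas, those of Cdh11 and Jup were higher, and the catenins Ctnnb1 and Ctnnd1, Pkp1 and Cdh13 differed by at most 0.12 log2 units in either direction. In 11 of the 26 probe sets the values of the 2 groups did not overlap, 7 of them higher and 4 lower in P467L, where 18.9% of all probe sets were so separated, 11.2% higher and 7.61% lower. limma, a linear model fitted to all 45037 probe sets with Benjamini-Hochberg adjustment, called 0 of the 26 at an adjusted p of 0.05, and it called 0% of all probe sets. At an unadjusted p of 0.05 it passed 7 of the 26, 4 higher and 3 lower, where 7.44% of all probe sets passed, 4.71% higher and 2.74% lower. Of all probe sets that passed, 63.2% were higher; the share was 77.1% with each array centred on its median, 49.6% with array weights and 52.2% without both arrays that stood apart. The members' choice drew on this same contrast, so nothing is read from these counts. By the brightest probe set of each gene, 6 genes were higher and 4 lower, and the median difference was 0.01 against 0.02 over 18193 genes.

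**Figure D1:**
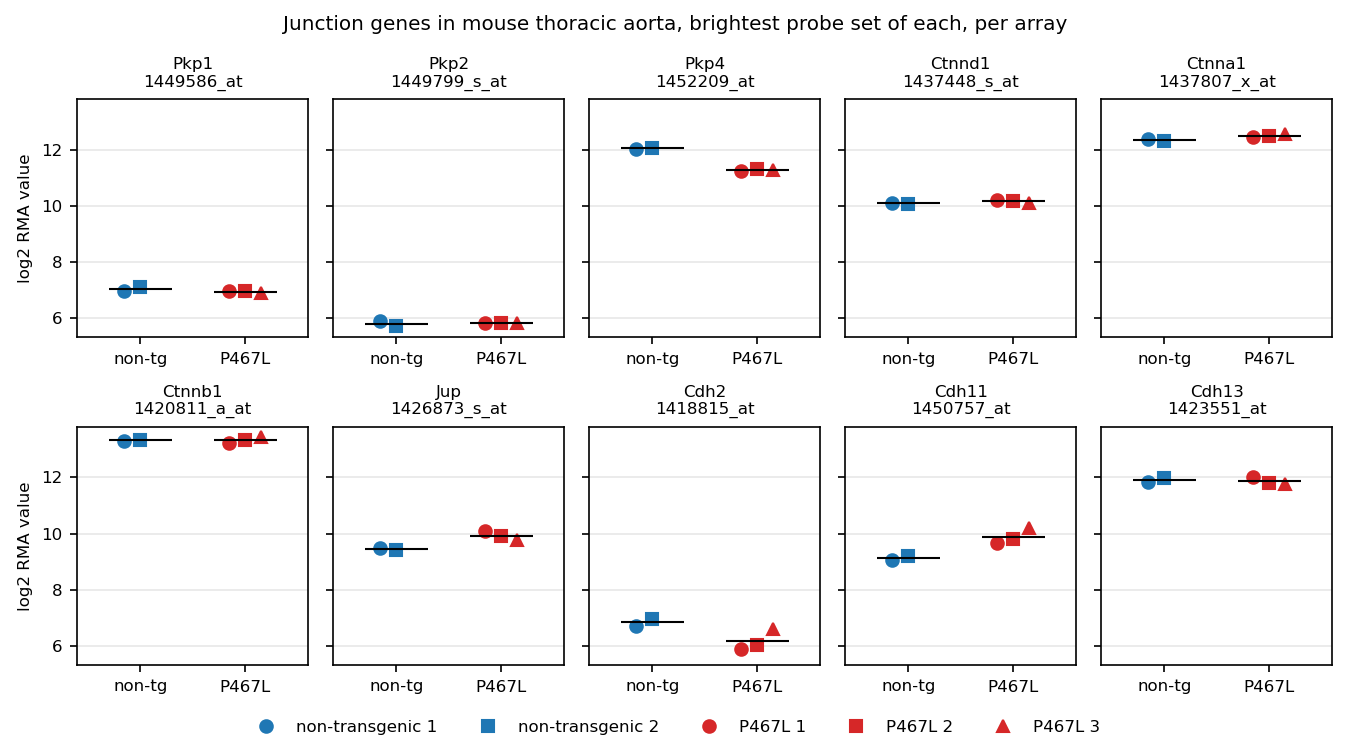
Each panel shows the log2 value of the brightest probe set of a gene on the 5 arrays (vertical axis, log2 RMA value; blue, 2 non-transgenic arrays; red, 3 P467L arrays; black lines, group means). In Pkp4 all 3 P467L arrays, at 11.23 to 11.30, lie below both non-transgenic arrays at 12.03 and 12.07, while Cdh11 and Jup show the opposite order.

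Pkp4 was read by 2 probe sets, both bright and both lower in P467L. The brighter, 1452209_at, measured 12.03 and 12.07 in the controls, against 11.23, 11.30 and 11.26 in P467L replicates 1, 2 and 3. The groups were separated by 0.73 log2 units, far more than the spread within either, with SDs of 0.03 (n = 2) and 0.04 (n = 3). The difference was -0.79 (SE 0.04; 95% interval -0.90 to -0.68), or 1.72-fold lower, and the adjusted p of limma was 0.0953.

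The dimmer Pkp4 probe set, 1438677_at, measured 10.13 and 10.30 in the non-transgenic and 9.42, 9.39 and 9.19 in the P467L arrays. Again the groups did not overlap, with a gap of 0.71. Its difference was -0.88 (SE 0.10; 95% interval -1.15 to -0.61), or 1.84-fold lower, with a limma adjusted p of 0.231. Both probe sets read the same RNA, so they are not replicates of each other. Of all 45037 probe sets, 228 had a difference as low as or lower than that of 1452209_at, and 153 one as low as that of 1438677_at, the probe set itself included.

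The Pkp4 difference did not rest on 1 array. With each array left out in turn it ran from -0.81 to -0.77 for 1452209_at and from -0.97 to -0.80 for 1438677_at. Without both arrays that stood apart, the low-Malat1 array and the one high in gastric transcripts, the values were -0.75 and -0.84. Probe set 1452209_at did pass the limma threshold in 3 other fits, each of which called more than the 0 of the main fit. Array weights (adjusted p = 0.00827) called 2245 probe sets, from an estimate that stopped before its tolerance was reached. Weights estimated gene by gene (adjusted p = 0.0179) called 283. The refit of limma to the brightest probe set of each gene (adjusted p = 0.0484) called 10. Over all alternatives the limma adjusted p of 1452209_at ran from 0.00827 to 0.746. Pkp4 was selected on this same contrast, so none of these values supports it independently.

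The other plakophilins were near or below the median level of all probe sets, 6.23. Pkp1, a plakophilin of stratified epithelium, measured 6.97 and 7.10 in the non-transgenic and 6.97, 6.97 and 6.88 in the P467L arrays, and these groups overlapped. Pkp2, the main plakophilin of the heart and also present in endothelium, had 4 probe sets, all under the median level. Its brightest measured 5.91 and 5.71 against 5.83 in each P467L array. The dimmest, 1420259_at, measured 3.73 and 3.70 against 3.51, 3.53 and 3.44, a difference of -0.22 (SE 0.04) without overlap. Only 3.24% of all probe sets had a lower mean than this one, so its value lies near the floor of the scale. Of the remaining pair, 1429183_at measured 5.45 and 5.48 against 5.54, 5.51 and 5.51, and 1460511_at measured 5.23 and 5.30 against 5.36, 5.16 and 5.01. The former lay 0.03 above the controls and the latter overlapped them.

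**Figure D2:**
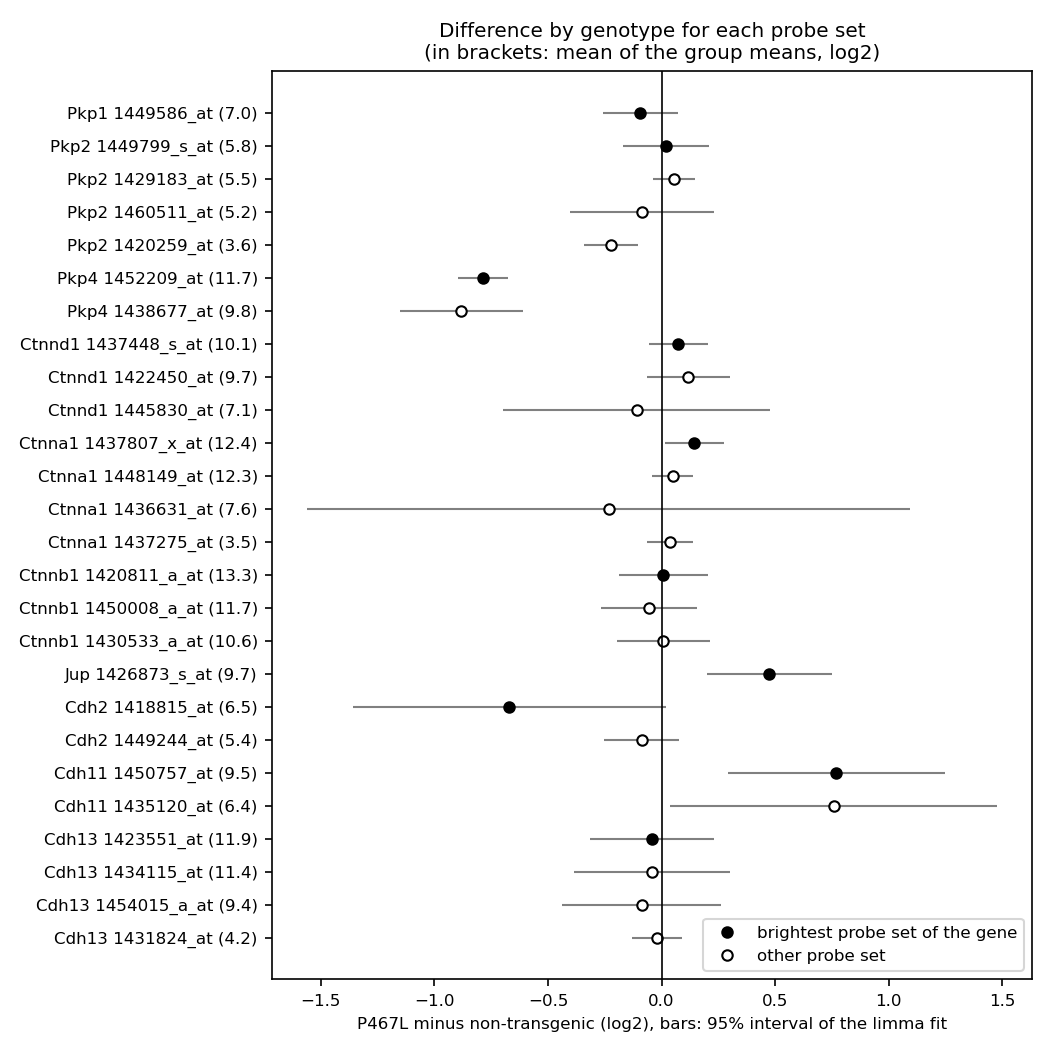
Points give the difference P467L minus non-transgenic (log2) for each of the 26 probe sets, filled for the brightest of its gene, and bars the 95% interval of the limma fit. The Pkp4 probe sets lie at -0.79 and -0.88, the Cdh11 probe sets at 0.77 and 0.76, and the bars of Ctnnb1 and Cdh13 cross 0.

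Ctnnb1, which encodes β-catenin, a cadherin partner and the effector of Wnt signalling, was the most even member. Its 3 probe sets differed by 0.01, -0.06 and 0.01. The brightest, 1420811_a_at, measured 13.29 and 13.34 in the controls, against 13.22, 13.33 and 13.42 in P467L. The non-transgenic values lay inside the P467L range, and the 95% interval of the difference was -0.19 to 0.20. Over the alternatives it ran from -0.04 to 0.09. Probe set 1450008_a_at measured 11.79 and 11.76 against 11.64, 11.67 and 11.85, and 1430533_a_at measured 10.57 and 10.56 against 10.47, 10.56 and 10.69. In all 3 probe sets P467L replicate 3 was the highest array and replicate 1 the lowest.

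Ctnnd1, encoding p120-catenin and thus the nearest relative of Pkp4 in this set, did not share its lower level. Its bright probe set 1437448_s_at measured 10.11 and 10.07 against 10.22, 10.16 and 10.11, a difference of 0.07 (95% interval -0.06 to 0.20). Probe set 1422450_at measured 9.71 and 9.61 against 9.87, 9.73 and 9.73, a difference of 0.12 (95% interval -0.07 to 0.30). These intervals do not reach the differences of Pkp4. Without both arrays that stood apart the differences were 0.025 and 0.02.

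Ctnna1, encoding αE-catenin, the link to actin, was slightly higher by its 2 bright probe sets. Probe set 1437807_x_at measured 12.39 and 12.31 against 12.46, 12.48 and 12.54, a difference of 0.14 (SE 0.05) without overlap. Probe set 1448149_at measured 12.32 and 12.33 against 12.36, 12.39 and 12.37, a difference of 0.05 (SE 0.03), also without overlap. The dimmest, 1437275_at, measured 3.51 and 3.45 against 3.53, 3.51 and 3.51, and 2.11% of all probe sets had a lower mean. The suffix of 1437807_x_at marks probes that may bind other transcripts too.

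Dimmer probe sets of Ctnna1 and Ctnnd1 were low in a single array, P467L replicate 1. Ctnna1 1436631_at measured 7.76 in both controls, against 6.66, 7.76 and 8.16 in P467L, so replicate 1 lay 1.10 below all others. Ctnnd1 1445830_at measured 7.11 and 7.17 against 6.64, 7.20 and 7.25. Over all probe sets, 2892 lay at least 0.4 below all others in that array, and these were the 2 members among them. Their differences were -0.23 and -0.11 with 5 arrays, and 0.20 and 0.09 without that array. Malat1 was low in the same array, and its part in these values was not tested.

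Jup, encoding plakoglobin, which serves desmosomes and adherens junctions alike, was higher in P467L. Its single probe set, 1426873_s_at, measured 9.48 and 9.42 in the non-transgenic and 10.08, 9.91 and 9.78 in the P467L arrays. The P467L values were spread over 0.30 log2 units and still lay 0.30 above the higher non-transgenic value. The difference was 0.47 (SE 0.10; 95% interval 0.20 to 0.75), or 1.39-fold, with a limma adjusted p of 0.448. It ran from 0.37 to 0.55 over the alternatives, the lowest value being that without both arrays that stood apart. Jup and Ctnnb1 encode close relatives that bind the same site of cadherins, and their probe sets gave 0.47 and 0.01.

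**Figure D3:**
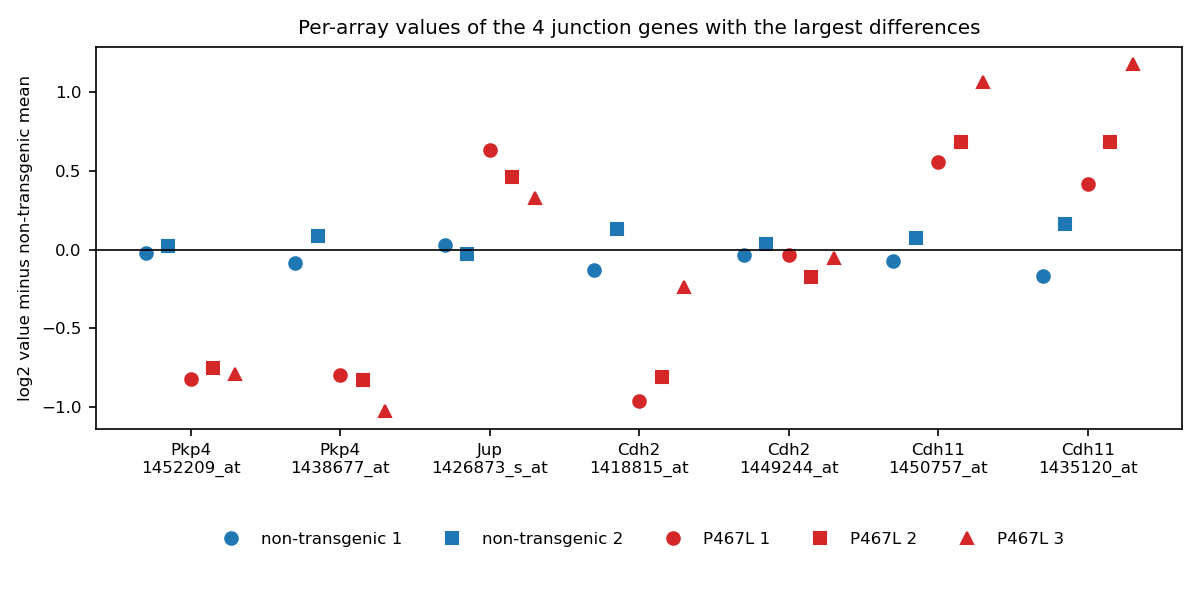
Values of each array relative to the non-transgenic mean (vertical axis, log2) for every probe set of Pkp4, Jup, Cdh2 and Cdh11; blue marks the 2 non-transgenic and red the 3 P467L arrays. The Pkp4 values of the P467L arrays lie close together, those of Cdh11 are highest in replicate 3, and those of Jup and of Cdh2 1418815_at are most extreme in replicate 1.

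Among the cadherins, Cdh11 was higher by both of its probe sets. The brighter, 1450757_at, measured 9.05 and 9.20 in the non-transgenic and 9.68, 9.81 and 10.19 in the P467L arrays, without overlap. The difference was 0.77 (SE 0.18; 95% interval 0.29 to 1.25), or 1.70-fold, with a limma adjusted p of 0.477. The dimmer, 1435120_at, measured 5.81 and 6.14 against 6.39, 6.66 and 7.15, a difference of 0.76 (SE 0.26). Both probe sets ordered the 5 arrays alike, with P467L replicate 3 highest. Without that array the differences were 0.62 and 0.55. Of all probe sets, 121 had a difference as high as or higher than that of 1450757_at, itself included.

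Fibroblasts of the adventitia are a known source of Cdh11, and markers of that cell type were read beside it. The mean log2 level of 6 fibroblast markers was 12.20 and 12.27 in the non-transgenic and 12.33, 12.23 and 12.38 in the P467L arrays. Of these 6, lumican (Lum) and collagen I (Col1a1) were higher without overlap, at 0.25 (SE 0.09) and 0.16 (SE 0.04). The other 4 overlapped, with 0.08 for Pdgfra, 0.06 for decorin (Dcn), 0.01 for Pi16 and -0.04 for dermatopontin (Dpt). The marker list was highest in P467L replicate 3, as Cdh11 was. In P467L replicate 2 the list lay below non-transgenic replicate 2, which Cdh11 did not. The part of cell composition in the Cdh11 difference was not tested.

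Cdh2, N-cadherin, was lower by its brighter probe set. That probe set, 1418815_at, measured 6.71 and 6.97 in the non-transgenic and 5.88, 6.03 and 6.60 in the P467L arrays. P467L replicate 3 lay only 0.11 under the lower non-transgenic value, so the separation was narrow. The difference was -0.67 (SE 0.25; 95% interval -1.36 to 0.02) with a limma adjusted p of 0.688, and it was -0.40 without both arrays that stood apart and -0.89 without P467L replicate 3. The other probe set, 1449244_at, below the median level, measured 5.41 and 5.48 against 5.41, 5.27 and 5.39, a difference of -0.09 with overlap.

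Cdh13, T-cadherin, a cadherin held by a lipid anchor with no cytoplasmic tail to bind catenins, was bright and even. Its brightest probe set, 1423551_at, measured 11.84 and 11.97 against 12.02, 11.81 and 11.76. The groups overlapped, and the 95% interval of the difference was -0.32 to 0.23. Probe set 1434115_at measured 11.38 and 11.39 against 11.54, 11.34 and 11.15, and 1454015_a_at measured 9.38 and 9.57 against 9.57, 9.22 and 9.37. The dim 1431824_at measured 4.28 and 4.20 against 4.22 in each P467L array. These 3 gave differences of -0.04, -0.09 and -0.02, and in each the groups overlapped. T-cadherin binds adiponectin (Adipoq), a product of adipocytes that PPARγ regulates. Adipoq measured 10.39 and 9.23 in the non-transgenic and 10.30, 9.54 and 9.66 in the P467L arrays, so the widest gap lay between the 2 controls.

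Genes whose pattern over the 5 arrays was most like that of Pkp4 were found by the Euclidean distance between values centred on their mean, over 11574 genes at or above the median level. The 5 nearest were Mgat4a, a glycosyltransferase of N-glycan branching, at a distance of 0.122, Rhobtb1, an adaptor of cullin-3, at 0.153, and the microfibril protein Mfap5 at 0.179. The chaperone Hspa1b followed at 0.202 and Kcnj15, an inward rectifier potassium channel, at 0.204, where the median over all genes compared was 0.946. Mgat4a measured 10.47 and 10.49 in the non-transgenic and 9.54, 9.73 and 9.73 in the P467L arrays. Kcnj15 measured 9.26 and 9.45 against 8.63, 8.53 and 8.71. With 5 arrays such a likeness is mostly the difference between the groups itself.

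Other junction genes were grouped in 8 lists, each gene read by its brightest probe set, and 0 of the genes in any list passed an adjusted p of 0.05. Over all 18193 genes, 9.45% passed an unadjusted p of 0.05, 6.94% higher and 2.51% lower. In 22.7% of them the groups did not overlap, 16.1% higher and 6.55% lower. Of 10 desmosome partners, 5 were higher and 5 lower, with a median of -0.01, and 2 passed the unadjusted threshold. The median was -0.0475 when P467L replicate 1 was left out and 0.0367 when the control array high in gastric transcripts was. Perp, a tetraspan protein of desmosomes, measured 10.88 and 10.69 against 11.39, 11.20 and 11.25, a difference of 0.50 (SE 0.09). Periplakin (Ppl) measured 8.39 and 8.42 against 8.28, 8.20 and 8.16, a difference of -0.19 (SE 0.05). The desmosomal cadherins were dim: Dsg2, Dsc1, Dsc2, Dsc3 and Dsg1a all had means below the median level.

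Of 18 other cadherins, 6 were higher, 11 lower and 1 equal, with a median of -0.04, and 0 passed the unadjusted threshold. Cdh4, R-cadherin, measured 6.96 and 7.07 against 7.51, 7.43 and 7.09, a difference of 0.33 (SE 0.15). Cdh1, the E-cadherin of epithelia, measured 4.36 and 6.00 against 3.87, 4.55 and 4.09. Its highest value lay in non-transgenic replicate 2, the array high in gastric transcripts. Cdh5, the VE-cadherin of endothelium, differed by 0.04 (SE 0.11), and by -0.05 without P467L replicate 1.

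Among 20 other catenins and adaptors of adherens junctions, 10 were higher and 10 lower, and the median was 0.00. The scaffold protein Magi1 measured 6.59 and 6.48 against 6.92, 6.80 and 6.81, a difference of 0.31 (SE 0.06), by its brightest probe set; its other 4, all dimmer, gave -0.06 to 0.18. Ctnnal1, α-catulin, a relative of α-catenin, measured 8.03 and 8.04 against 7.84, 7.86 and 7.77, a difference of -0.21 (SE 0.04), and its second probe set gave -0.22. These 2 genes passed the unadjusted threshold, or 2 of 20, near the share over all genes.

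The turnover of β-catenin was read by 11 genes, 7 higher and 4 lower, with a median of 0.02 and 0 past the unadjusted threshold. Its members with the smallest p were the phosphatase Ptpn1 at 0.14 (SE 0.05) and the kinase Gsk3b at 0.09 (SE 0.05). The dimmer probe set of Ptpn1, 1438670_at, measured 8.84 and 8.81 against 9.17, 9.06 and 9.03, a difference of 0.26 (SE 0.06) without overlap that would pass the unadjusted threshold. The 5 dimmer probe sets of Gsk3b gave -0.58 to -0.01 with all arrays. The lowest, 1439949_at, measured 7.59 and 7.61 against 5.99, 7.33 and 7.74, and its difference was -0.065 without P467L replicate 1. By contrast 1437001_at gave -0.47 without overlap, and still -0.335 without that array. The rest of the dimmer Gsk3b probe sets gave -0.01, -0.15 and 0.065 without it. Transcription partners and targets of β-catenin numbered 17, 8 higher, 8 lower and 1 equal, with a median of 0.00, which was -0.075 without P467L replicate 1 and -0.10 without both arrays that stood apart. Tcf7l2, a transcription factor that β-catenin binds, measured 8.30 and 8.26 against 8.07, 7.87 and 7.78, a difference of -0.37 (SE 0.10). Its other 3 probe sets gave -0.65, -0.43 and -0.12. Lef1, of the same family, differed by -0.17 (SE 0.06) by its brighter and 0.07 by its dimmer probe set. The Wnt target Axin2 differed by 0.16 (SE 0.15), with overlapping groups, and by 0.035 without P467L replicate 1.

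The 4 genes of the adiponectin axis had a median of 0.03, with 0.07 for the receptor gene Adipor1 and 0.04 for Adipor2, and the groups overlapped in each. Without P467L replicate 1 the median was -0.0375. A dimmer probe set of Adipor2, 1437864_at, measured 6.69 and 6.58 against 6.50, 6.38 and 6.32, a difference of -0.24 (SE 0.07) without overlap. Of 7 genes of cadherin shedding and processing, 5 were higher and 2 lower with a median of 0.09. The metalloprotease Adam15 was higher by all 4 of its probe sets, by 0.18, 0.52, 0.20 and 0.44, and the proprotein convertase Furin by 0.10 (SE 0.05). Without P467L replicate 1 the Adam15 values were 0.15, 0.45, 0.04 and 0.27.

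Of 13 gap and tight junction genes, 9 were higher and 4 lower with a median of 0.10. In 7 the groups did not overlap, 5 higher and 2 lower, where 22.7% of all genes were so separated, 16.1% higher and 6.55% lower. The list was chosen with earlier results of these data known, so nothing is read from this count. Claudin-5 (Cldn5), the tight junction protein of endothelium, measured 8.76 and 8.64 against 9.62, 9.30 and 9.37, a difference of 0.73 (SE 0.12). Gja4, encoding a connexin of endothelial gap junctions, measured 9.26 and 9.39 against 10.11, 9.90 and 9.72, a difference of 0.59 (SE 0.13). Both passed the unadjusted threshold, as 9.45% of all genes did. Without P467L replicate 1 the list's median was 0.02.

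**Figure D4:**
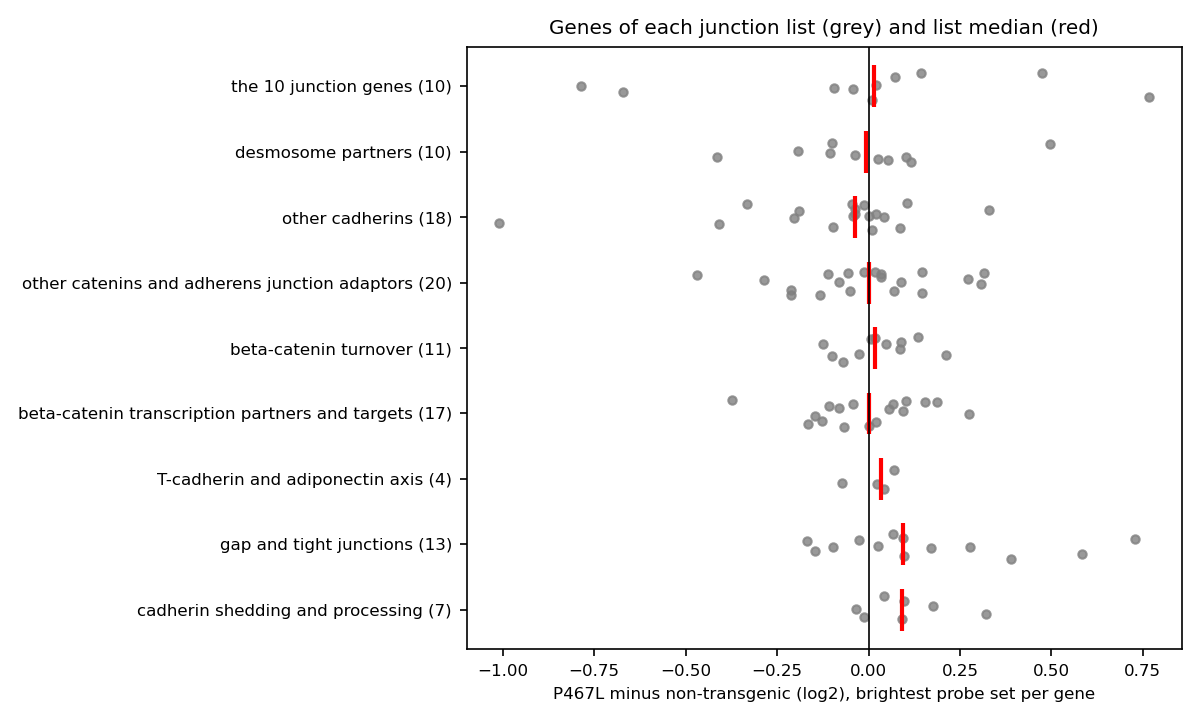
Grey points are genes by their brightest probe set (horizontal axis, difference P467L minus non-transgenic in log2) and red bars the median of each list, with the number of genes in brackets. List medians lie between -0.04 and 0.10, and Pkp4, Cdh2, Cdh11 and Jup form the ends of the row of 10 junction genes.

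Cell type markers were read on the same arrays, as the mean log2 level of each list. All 6 smooth muscle markers lay above the median level, with a list mean of 13.71 and 13.69 in the non-transgenic and 13.75, 13.74 and 13.72 in the P467L arrays. Smoothelin (Smtn) was higher by 0.16 (SE 0.04) without overlap, and the other 5 overlapped. Acta2 and Tagln lay at the top of the scale, with at least 99.99% of all probe sets below them. Endothelial markers, 7 genes including Cldn5 and Cdh5, were at 9.01 and 8.98 against 9.01, 8.87 and 8.95. Emcn was lower by -1.05 (SE 0.12) and Cldn5 higher, each without overlap. Pecam1 differed by -0.09 and Vwf by 0.10, also without overlap, by gaps of 0.03 and 0.01. Kdr, Cdh5 and Tek overlapped, at -0.08, 0.04 and 0.02. Simple and gastric epithelial markers, 10 genes including Cdh1, were at 7.61 and 10.15 against 8.02, 8.12 and 7.81. Without the array high in these markers the differences of Pkp4 were -0.77 and -0.80, against -0.79 and -0.88 with it.

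Cardiac markers were at 6.75 or less in the controls and at 6.82, 6.86 and 7.13 in P467L, with troponin T (Tnnt2) higher by 1.02 (SE 0.10), phospholamban (Pln) higher by 0.68 (SE 0.21) and Actn2 lower by -0.48 (SE 0.15), each without overlap. Myh6 differed by 0.83 with overlap. Ryr2 differed by 0.21 (SE 0.21), also with overlap. Of the 7 cardiac genes, Tnni3, Myh6 and Nppa had means below the median level and the other 4 had means at or above it. Squamous epithelial markers ranged from 5.74 to 5.87, mesothelial markers from 5.85 to 6.16, skeletal muscle markers from 5.57 to 6.05, and Schwann cell and nerve markers from 9.50 to 9.64. Within these lists the creatine kinase gene Ckm was higher by 1.33 (SE 0.32) and Ncam1 by 0.28 (SE 0.06), both without overlap. The lists did not move with them. Of the skeletal muscle markers 3 were higher and 3 lower, with a median of -0.0125. Of the measured Schwann cell and nerve markers 2 were higher and 2 lower, with a median of -0.02. Adipocyte markers were at 8.31 and 7.21 in the controls, which enclosed the P467L values of 8.09, 7.36 and 7.71. The part of any of these cell types in the differences of the junction genes was not tested beyond the values given.

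**Figure D5:**
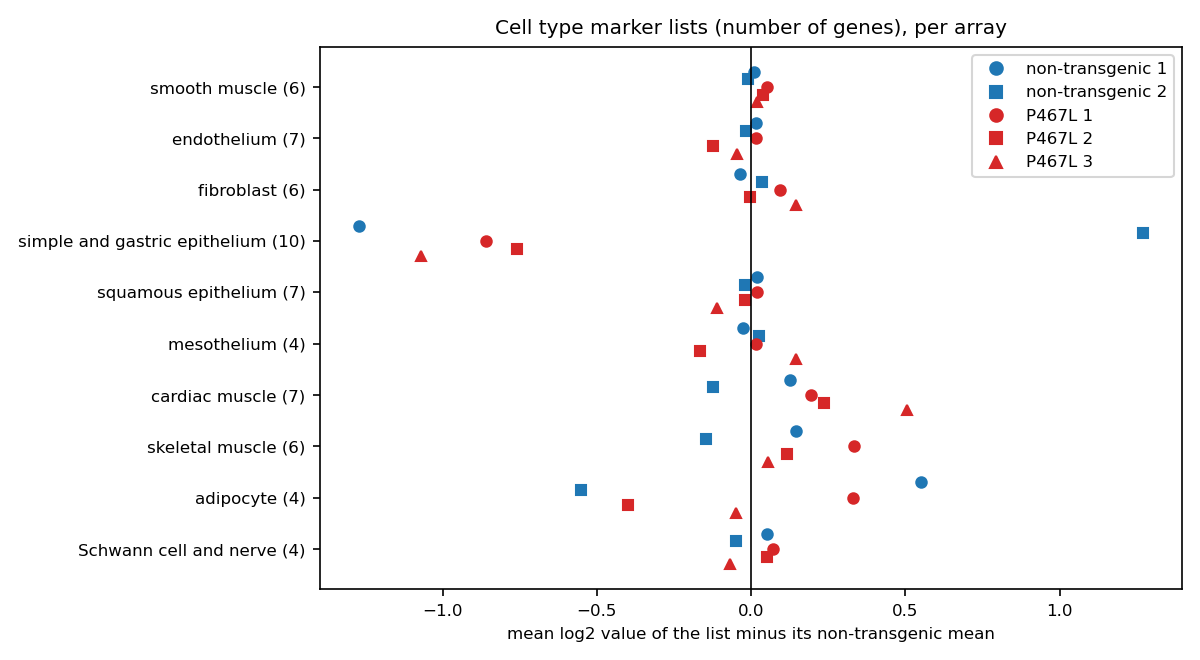
Each point is the mean log2 level of a marker list on 1 array minus the list's non-transgenic mean (horizontal axis), with the number of genes in brackets; blue marks the 2 non-transgenic and red the 3 P467L arrays. The epithelial list is high in non-transgenic replicate 2 alone, at 10.15 against 7.61 to 8.12, and the smooth muscle list stays between 13.69 and 13.75.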

How the data were processed

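RNA of 5 pooled aorta samples was measured on arrays. The deposited log2 values were made by the authors; the submitters' processing notes name Affymetrix Power Tools and RMA, with no version. RMA forces the probe intensities of all arrays to a shared distribution, so a shift common to most transcripts would be largely removed. The summarized probe set values did not share 1 distribution, with array medians from 6.17 to 6.25. Bright and dim say only where the mean of a probe set lies among all probe sets, and compare no amounts of transcript.

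Affymetrix control probe sets, 64 in number, entered no test. Of 45037 probe sets, 34945 had 1 gene in the platform annotation, with symbols updated through NCBI gene numbers to RefSeq GRCm38.p6; 932 had several genes and 9160 had none there. Groups came from the genotype label. The comparison was run in R 4.3.3 with limma 3.58.1 (a two-sided moderated test from lmFit and eBayes with 4.23 degrees of freedom and no covariate), adjusted over all 45037 probe sets. Intervals are the 95% intervals of that fit. The labels number the pools as replicates and are not known to pair them across groups. The small number of pools limits the precision. The steps were tested on simulated data.

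The text names every member probe set, the 2 genes with the smallest p in each junction list, and the 5 genes most like Pkp4; other genes (Malat1, Gkn2, Cdh5, Axin2, the Dsg and Dsc genes, single cell type markers, Adipoq, second probe sets of named genes) were singled out once values were known. The members, the 8 junction lists and the 10 marker lists were chosen with earlier results of these data known. The result of 1 further junction list is not reported here. Promoters of the members were read from RefSeq windows, with those on 1 chromosome left out, and 4 of the 10 genes had a window among those read.

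Alternatives changed the scaling (median centring or renewed quantile normalization), the model (a block on the replicate number, a variance trend, array weights), the probe sets kept, the arrays (each left out in turn) and the threshold. A fit without both arrays that stood apart, array weights by gene and a refit on 1 probe set per gene were added after the data were seen.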

Additional observations from a re-analysis of the deposited data

How the results depend on the processing

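The count of called probe sets, 0 of 45037 with 3353 past an unadjusted p of 0.05 by limma, stayed at 0 with a second quantile normalization, the dim filter, a variance trend, p re-adjusted over 1 probe set per gene, without both arrays that stood apart, and with each array left out in turn (0 to 0). It was 15 with median centring, 17 at an adjusted p of 0.10, 10 with a refit on 1 probe set per gene, 2245 with array weights, whose estimate stopped before its tolerance was reached, and 283 with weights estimated gene by gene. With median centring 77.1% of the probe sets past an unadjusted p of 0.05 by limma were higher in P467L, against 63.2% as reported. The array medians were 6.25 and 6.25 in the controls and 6.17, 6.23 and 6.23 in P467L. Centring therefore raised every difference by the same amount, that of Pkp4 1452209_at from -0.7867 to -0.7467. The share was 49.6% with array weights, 52% with weights gene by gene and 73.6% with the refit. It was 52.2% without both arrays that stood apart and 50.2% to 66.9% with each array left out. The cause of these other changes was not tested. Array weights called 6 of the 26 junction probe sets: both of Pkp4, at -0.75 and -0.83, and those of Jup at 0.46, Cdh11 at 0.69, Cdh2 at -0.81 and the dimmest of Pkp2 at -0.19. The gene-by-gene weights called both of Pkp4 and the refit called 1452209_at. With the replicate number as a block, limma called 0 probe sets. The differences of Pkp4 were then -0.79 and -0.81, with a limma adjusted p of 0.551 for each. P467L replicate 3 has no same-numbered control, so these differences equal those without that array, and fewer degrees of freedom were left. Deviations of same-numbered arrays from their group means had correlations of 0.113 and 0.00814. With 2 controls, the deviations of 1 mirror those of the other, so these values cannot decide whether the pools were paired. The median of the 10 junction genes, 0.01, ran from 0.01 to 0.04 with each array left out. It was 0.0542 with median centring and -0.0303 as the mean over all probe sets of a gene. The other list medians kept within the spread of the arrays in 96 of 120 values, and over all of them ran from -0.10 to 0.14.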
